A study of Mus musculus with 8 samples.

Results

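Resting bone marrow derived mast cells (BMMCs) that had been mock transfected made up 4 of the 8 RNA-seq libraries of the series, and their baseline transcriptome is described here. The 4 libraries were taken by their group label, Pulsed, and are called Pulsed 1 to Pulsed 4 after their replicate numbers. Their genotype label names the group as wild type for Mettl3, and the cells had received no Cas9 ribonucleoprotein, the complex of nuclease and guide RNA that the other 4 libraries of the series had been given. BMMCs are primary mast cells grown from whole bone marrow. Here the marrow came from C57BL/6 mice 6 to 8 weeks old and was kept for 4 weeks or longer in medium with interleukin-3 (IL-3) and without added stem cell factor. No stimulus was labelled for these cells, so they are called resting. The name was not tested, and genes switched on within minutes of a stimulus differed widely between the libraries, as given below. The group is limited as a model by the culture, since cells grown in IL-3 stand for 1 kind of mast cell and not for those of a tissue, and by the mock transfection, for which no untransfected library was analysed here. The series text gives 4 mice as the source of the cells, and the study's methods call the replicates independent biological replicates. There was 1 group, so no test between groups was made and the values are given with their spread over the 4 libraries.

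Mast cells are long-lived cells of the innate immune system that sit in skin, mucosa and connective tissue. They hold granules filled with proteases, histamine, serotonin and the proteoglycan serglycin, and they display the high-affinity receptor for IgE, which releases those granules when antigen cross-links it. The receptor tyrosine kinase Kit and the IL-3 receptor keep them alive, and the transcription factors Gata2 and Mitf are needed to form them.

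Levels are given as CPM, the count of a gene per 1000000 counts of a library after TMM scaling, which corrects library sizes for the few genes that take up much of a library. Where 1 gene is set against another, TPM, the count per base of exon scaled to sum to 1000000 in each library, is used, because a long transcript gives more counts than a short one at the same number of molecules. Total counts ran from 33942160 to 45324826 per library, and between 22062 and 27045 of the 56748 gene IDs had a count. Reads carry no molecular identifiers, so limits drawn from counts cover counting error only. A gene with no count in a library lay under 3 counts there, which is 0.0667 to 0.0875 CPM. Values written with ± are means and SD over the 4 libraries (n = 4). Pulsed 3 stood apart from the other libraries. The Pearson correlation of log2 CPM across expressed genes was 0.916 to 0.948 between Pulsed 3 and each other library and 0.961 to 0.982 among the others, a description of 6 pairs that share libraries. Leaving out Pulsed 3 lowered the mean of 34 of the 240 genes named here by over 1.5 times, and means without it are given for those genes. A mean of 4 values cannot rise by as much when 1 is dropped, so for genes low in Pulsed 3 the value in each library shows its part.

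The 6 marker genes were detected in every library and together held 30752 to 49471 CPM. Kit, the receptor for stem cell factor (chromosome 5, 75735576 to 75817404, plus strand), stood at 4791, 3682, 4126 and 3273 CPM in Pulsed 1 to 4. Fcer1a, the IgE-binding alpha chain of the high-affinity receptor (chromosome 1, 173048851 to 173054781, minus strand), stood at 2603, 2883, 2177 and 2654 CPM. Both genes kept within a narrow band, with the highest library 1.46 times the lowest for Kit and 1.32 times for Fcer1a. Ms4a2, the signal-amplifying beta chain of the same receptor (chromosome 19, 11592887 to 11601083, minus strand), had 1708, 1785, 924 and 2026 CPM, and Pulsed 3 was the low library. Cpa3, mast cell carboxypeptidase A (chromosome 3, 20269774 to 20296362, minus strand), had 19555, 37266, 25391 and 39562 CPM and was the highest gene of the whole table. Pulsed 1 and Pulsed 3 held less Cpa3 than Pulsed 2 and Pulsed 4. Gata2, the zinc finger factor of the stem cell and mast cell lineages (chromosome 6, 88170559 to 88184018, plus strand), had 1939, 2317, 2744 and 1801 CPM. For Mitf, a basic helix-loop-helix factor of mast cells and pigment cells (chromosome 6, 97783950 to 97998323, plus strand), the values were 155, 156, 66.8 and 156 CPM. Pulsed 1, 2 and 4 were almost equal for Mitf and Pulsed 3 lay at less than any of them, so that the mean of 134 ± 44.6 CPM became 156 CPM without Pulsed 3. Mitf was the only 1 of the 6 markers at least 2 times lower in Pulsed 3 than in each other library, a rule that 9.39% of all expressed genes met. Coordinates are those of GRCm39, and the annotation lists all 6 as protein-coding genes. In bulk RNA, fewer cells of a type and less RNA per cell cannot be told apart.

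**Figure D1:**
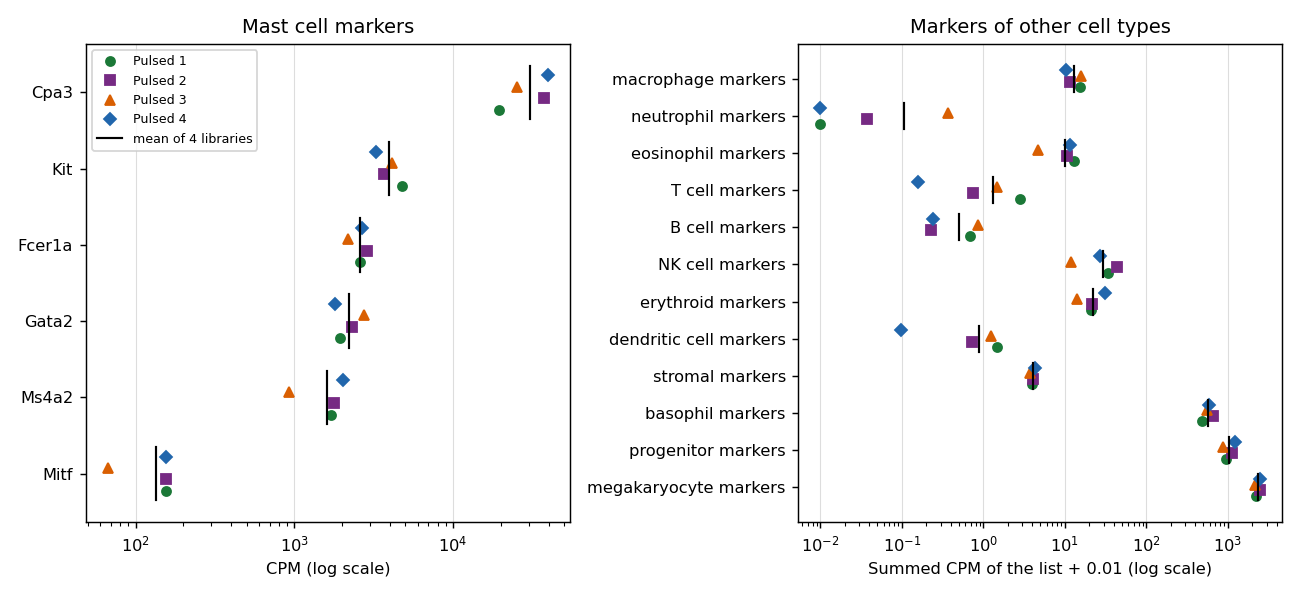
Left, CPM of the 6 mast cell markers in each library on a log axis, with symbols for Pulsed 1 to 4 and a black bar for the mean of 4 libraries. Right, the summed CPM plus 0.01 of marker lists of 12 other cell types on a log axis. The 6 markers lie between 66.8 and 39562 CPM. On the right, the basophil, progenitor and megakaryocyte lists sum to between 479 and 2506 CPM, and no other list to more than 43.0 CPM in a library.

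The DNA just before the start of the canonical transcript of each marker gene was read from GRCm39. It shows where the letters bound by GATA factors occur in genes of this level. The search covered 250 bases before that start for AGATAA or TGATAA on both strands. Other starts of a gene were not read, and the window of Gata2, 88175063 to 88175312, lay inside its gene span. At least 1 match was held by 3 of the 6 markers. That is 1 in Cpa3, 1 in Fcer1a and 3 in Ms4a2, and none in Kit, Gata2 or Mitf. Among all 21770 protein-coding genes 15.9% held a match in a window of that length, and among the 10699 expressed ones 11.0%. The E-box CATGTG, the hexamer known for Mitf, was found in the window of Fcer1a among the markers, and in 10.5% of all and 7.31% of the expressed protein-coding genes. One stretch per gene and motif is shown 5′ to 3′ on the strand of the gene, which is the minus strand for all 3 genes, with the matched letters or their reverse complement in capitals. The 2 motifs did not overlap in these windows, and a match describes the letters and is not a measured binding site.
Cpa3, chr3:20296374-20296403: agctgttcgtcgAGATAAaagctgaggtat
Fcer1a, chr1:173054871-173054900: acaaccctattaTTATCTctggagaaagcc
Fcer1a, E-box, chr1:173054987-173055016: taaggaggaatcCACATGactctgcttaga
Ms4a2, chr19:11601103-11601132: cagcctggagacTTATCTgacaagtaggtt

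The genes that define other blood cells were low or without a count, with some exceptions. All 9 neutrophil markers were under 1 CPM, and 6 of them, S100a8, S100a9, Ltf, Camp, Elane and Retnlg, had no count in any library. The 4 eosinophil granule genes Epx, Prg2, Prg3 and Ear1 had no count either, while the eosinophil surface genes Siglecf and Ccr3 had 4.27 ± 1.13 CPM and 2.19 ± 0.948 CPM. T cell markers summed to 0.146 to 2.83 CPM, B cell markers to 0.218 to 0.845 CPM and dendritic cell markers to 0.0875 to 1.45 CPM. Of the 11 macrophage markers, 3 reached 1 CPM, Lyz2 (lysozyme) at 5.07 ± 0.924 CPM, Cd68 at 4.36 ± 1.21 CPM and Adgre1 at 2.49 ± 0.291 CPM. The macrophage growth factor receptor Csf1r had a mean of 0.132 ± 0.236 CPM, or 0.0144 CPM without Pulsed 1. Among stromal genes the receptor Pdgfrb had 2.84 ± 0.781 CPM. Stromal markers summed to 3.71 to 4.32 CPM and erythroid markers to 14.1 to 31.1 CPM, in which Car2 (carbonic anhydrase) held 17.4 ± 6.79 CPM and Hba-a1 (alpha globin) 3.37 ± 0.900 CPM. Each of these lists summed in every library to less than Mitf, the lowest of the 6 mast cell markers, did in its lowest library.

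Some markers of neighbouring lineages were high. Cd200r3, an activating receptor of basophils and mast cells, had 478, 649, 550.5 and 588 CPM, while the basophil proteases Mcpt8 and Prss34 had means of 2.59 ± 1.57 CPM and 1.11 ± 0.657 CPM. Of the 9 megakaryocyte markers, 3 were expressed, namely the integrin chain Itga2b at 1732 ± 83.1 CPM, the platelet glycoprotein Gp1ba at 494 ± 146 CPM and von Willebrand factor, Vwf, at 100.1 ± 10.4 CPM. The platelet chemokines did not go with them, since Pf4 had a mean of 0.219 ± 0.187 CPM, or 0.137 CPM without Pulsed 3, and Ppbp had no count. Among progenitor genes, the surface sialomucin Cd34 stood at 303, 484, 497 and 536 CPM. Ly6a (Sca-1) was highest in Pulsed 1, at 381, 302, 249 and 297 CPM. The homeobox factor Meis1 had 71.0, 170.3, 81.9 and 158 CPM, higher in Pulsed 2 and 4. The T-box factor Eomes was the 1 NK cell marker above 1 CPM, at 33.6, 42.6, 11.7 and 27.1 CPM, whereas Prf1 (perforin) and Klrb1c had no count. These values belong to the bulk culture and do not say which cells carried them.

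Of all gene IDs, 11933 had a mean of at least 1 CPM and are called expressed. They comprised 10699 protein-coding genes and 746 long noncoding RNAs. At least 10 CPM was reached by 8443 genes, at least 100 CPM by 2086 and at least 1000 CPM by 87. The 20 highest genes held 15.2% ± 0.547 (SD, n = 4) of the counts, and 5 of them were encoded by mitochondrial DNA. With mitochondrially encoded genes left out of the ranking and the total, the share was 12.8% ± 0.776 (SD, n = 4).

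By CPM, the order began with Cpa3 at 30443 ± 9553 CPM, which alone took up 3.01% of the counts. The mitochondrial cytochrome oxidase subunit mt-Co1 followed with 16071 ± 687 CPM, then cytochrome b, mt-Cytb, with 9422 ± 861 CPM. The NADH dehydrogenase subunits mt-Nd1, mt-Nd5 and mt-Nd2, also of mitochondrial DNA, had 7769 ± 636 CPM, 6226 ± 869 CPM and 3670.2 ± 329 CPM. The elongation factor Eef1a1 had 8656 ± 1163 CPM and beta-actin, Actb, 8234 ± 2452 CPM. Among these, mt-Co1 kept within 15167 to 16699 CPM, whereas the highest library was 2.02 times the lowest for Cpa3 and 1.98 times for Actb. Chymase, Cma1, stood at 6310.3, 9158, 7404 and 8970.4 CPM and tryptase, Tpsb2, at 4351, 6206, 5813 and 5691 CPM. The rate-limiting enzyme of peripheral serotonin synthesis, Tph1, had 6574, 7808, 7159 and 7622 CPM, and the 4 libraries lay close together. Cyp11a1, the side-chain cleavage enzyme that opens steroid synthesis, was among the 20 with 3421, 3562, 2958 and 3281 CPM. The prion protein gene Prnp had 5219, 4771, 5891 and 4806 CPM and scinderin, Scin, which severs actin filaments, 1706, 3398, 2317 and 3483 CPM. Scin was higher in Pulsed 2 and 4 than in Pulsed 1 and 3, as Cpa3 was. One ribosomal RNA-like gene, Rn18s-rs5, was also among the 20, at 4821, 6208, 3898 and 1435 CPM, lowest in Pulsed 4. Ribosomal RNA genes together held 0.140% to 0.588% of the counts, with Pulsed 4 again lowest.

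**Figure D2:**
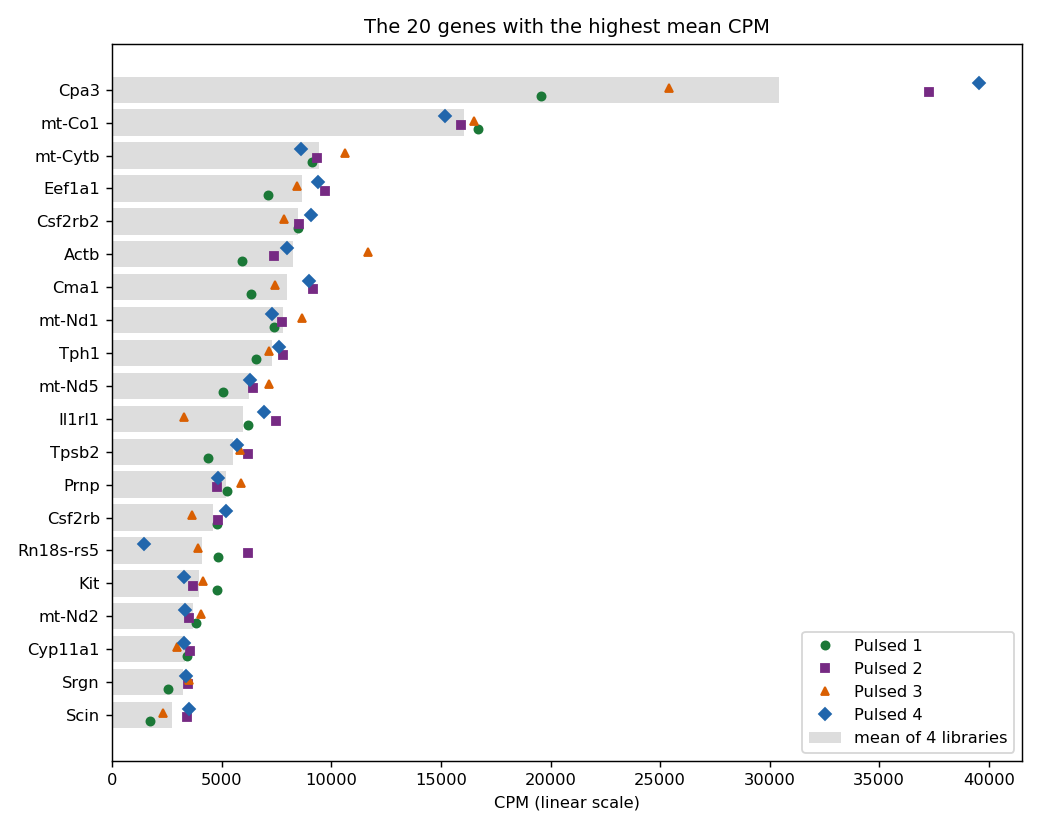
CPM on a linear axis starting at 0 for the 20 genes with the highest mean, with a grey bar for the mean of 4 libraries and symbols for each library. Cpa3 exceeds every other gene in all 4 libraries, and its own values run from 19555 to 39562 CPM.

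Per length the leading genes changed in part, with 14 of the 20 highest by TPM also among the 20 highest by CPM. Cpa3 still came first, at 73373 ± 19304 TPM. Cma1 took the fifth place at 28329 ± 3071 TPM, and Fcer1a entered at the ninth place with 10107 ± 1290.2 TPM, just above Tpsb2 with 9767 ± 723 TPM. The cytokine receptor chain Csf2rb2 and the proteoglycan core Srgn stayed among the 20, at 6994 ± 712 TPM and 4349 ± 338 TPM. Of the 6 markers in order of TPM, Cpa3 exceeded Fcer1a and Fcer1a exceeded Ms4a2 in all 4 libraries. Ms4a2 exceeded Kit in 3 of 4, so these neighbours were not separated beyond their spread. Kit exceeded Gata2 and Gata2 exceeded Mitf in 4 of 4.

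The granule proteases were led by a few genes out of families with many members. Mast cell proteases cut proteins and venoms once released, and the set that a mast cell makes differs between mucosal and connective tissue types. Of the 16 proteases on the list, 11 were expressed, and 5 of them, Cpa3, Cma1, Tpsb2, Gzmb and Tpsg1, exceeded 100 CPM. Granzyme B, Gzmb, had 563, 1512, 969.7 and 1187 CPM, and the transmembrane tryptase Tpsg1 had 594, 957, 644 and 1103 CPM. The tryptase paralog Tpsab1 had a mean of 0.0447 ± 0.0303 CPM and granzyme A, Gzma, no count. Cathepsin G, Ctsg, stood at 8.49, 32.0, 48.9 and 123 CPM, with Pulsed 1 lowest and Pulsed 4 highest, and its mean without Pulsed 4 was 30.03 CPM. The other chymases were far below Cma1. Cma2 had 10.4 ± 5.90 CPM and Mcpt2 5.31 ± 1.87 CPM. Mcpt4, the chymase of connective tissue mast cells, had 2.93 ± 2.24 CPM and, without Pulsed 4, 1.94 CPM, and Mcpt1, that of mucosal mast cells, 0.0955 ± 0.0557 CPM. In TPM, Cma1 exceeded Mcpt4 in every library by 1533 to 9920 times. Cma1, Gzmb, Ctsg and 7 other genes of the list lie together on chromosome 14, from 56178908 to 56499717, so genes of very different level were neighbours there. The 3 tryptase genes on the list lie on chromosome 17, from 25562212 to 25593417. Reads from near-identical paralogs can be split or lost in counting, so the values of the minor chymases and of Tpsab1 are uncertain. Of the 11 expressed proteases, 10 had their lowest value in Pulsed 1, against 32.3% of all expressed genes, and 7 their highest in Pulsed 4, against 33.8%. With total counts as library sizes these were 9 and 8 of the 11, against 21.9% and 27.7% of all expressed genes. Mcpt8 and Prss34, which also mark basophils, are among the 11, and the 3 expressed basophil markers and 6 of the 8 reference genes with a row were likewise lowest in Pulsed 1. When Pulsed 3 was left out the counts were again 10 and 7, against 47.1% and 35.7% of all expressed genes.

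The granule amines depend on synthesis enzymes and a vesicle transporter. After Tph1, the vesicular monoamine transporter Slc18a2 had 1668, 1238, 704 and 1376 CPM, with Pulsed 3 lowest. Histidine decarboxylase, Hdc, which makes histamine, stood at 164, 247, 209 and 90.8 CPM. Pulsed 4 was the low library for Hdc. In TPM, Tph1 exceeded Hdc by 34.9 to 92.6 times. Ddc, the decarboxylase that completes serotonin synthesis, had only 3.75 ± 2.03 CPM, and the serotonin transporter Slc6a4 1.30 ± 1.06 CPM, or 0.766 CPM without Pulsed 1. Of the degrading enzymes, monoamine oxidase B, Maob, had 555 ± 178 CPM, while histamine N-methyltransferase, Hnmt, had a mean of 0.0334 ± 0.0667 CPM, with all of its counts in Pulsed 3.

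Serglycin binds the positively charged proteases and amines through its sulfated sugar chains, which are heparin or chondroitin sulfate. Its core protein gene Srgn stood at 2531, 3436, 3493 and 3355 CPM, with Pulsed 1 below the other 3. All 20 genes of proteoglycan synthesis were expressed, and their median CV, the SD as a percent of the mean, was 15.9%, against 24.6% over all expressed genes. Ndst2, the sulfotransferase that mast cell heparin requires, had 597, 485, 293 and 643 CPM. In TPM, Ndst2 exceeded its paralog Ndst1 by 4.63 to 11.8 times. For chondroitin sulfate, the chain-building synthase Chsy1 had 391 ± 41.3 CPM and the sulfotransferase Chst15, which makes the oversulfated form, 157 ± 67.5 CPM. Hs3st1 and Hs6st1, which sulfate heparin, had 175 ± 68.6 CPM and 149 ± 18.4 CPM.

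Lysosomal enzymes share the granule, and the release of beta-hexosaminidase is the usual measure of degranulation. Hexa, which encodes its alpha subunit, had 205, 236, 187 and 229 CPM. Cathepsin D, Ctsd, was the highest of the 15 genes at 1032, 1127, 931 and 1239.6 CPM, followed by the tetraspanin Cd63, which marks granule membranes, at 754, 750.1, 688 and 727 CPM. The 4 values of Cd63 differed by at most 1.10 times. Cathepsin C, Ctsc, which activates chymases and granzymes, had 439 ± 98.5 CPM. Cathepsin L, Ctsl, was low in 3 libraries and higher in Pulsed 1, with 9.48, 0.653, 1.89 and 0.379 CPM, and its mean without Pulsed 1 was 0.946 CPM. The lysosomal membrane genes Lamp1 and Lamp2 had 398 ± 67.7 CPM and 256 ± 20.8 CPM.

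For the exocytosis machinery, 18 of 19 listed genes had a row and 16 were expressed. Rab27b, the small GTPase that moves granules to the membrane, had 397, 428, 466 and 481 CPM, against 29.8, 33.0, 10.6 and 51.3 CPM for its paralog Rab27a. The membrane SNARE Snap23 had 325, 399, 317 and 401 CPM. Its partners Stx3 and Vamp8 had 143 ± 18.2 CPM and 113 ± 13.7 CPM, and the SNARE regulator Stxbp2 (Munc18-2) had 234, 226, 154 and 228 CPM, lowest in Pulsed 3. The priming factor Unc13d had 139, 119, 82.0 and 149 CPM, and the SNARE Vamp2 85.2, 114, 183 and 80.9 CPM. Syt2 and Cplx2, regulators of calcium-triggered fusion, were under 1 CPM.

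**Figure D3:**
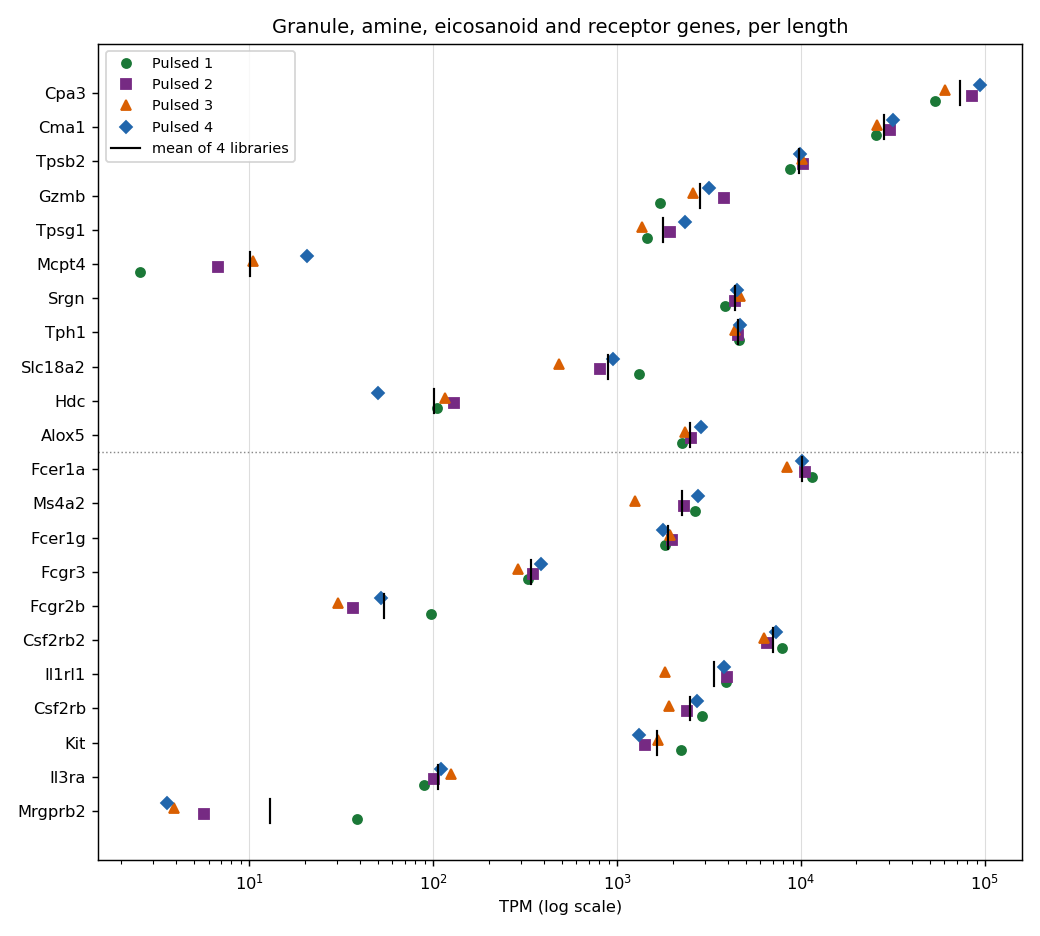
TPM on a log axis for granule, amine and eicosanoid genes above the dotted line and receptor genes below it, with symbols for each library and a black bar for the mean of 4 libraries. Cpa3 leads at a mean of 73373 TPM, while Mcpt4 has a mean of 10.1 TPM and Mrgprb2 is set apart by Pulsed 1.

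The high-affinity IgE receptor is built from an alpha, a beta and a pair of gamma chains, and the gamma chain also serves other Fc receptors. The gamma chain gene Fcer1g had 480.4, 632, 588 and 539 CPM, with no library apart. In TPM, Fcer1a exceeded Ms4a2 by 3.69 to 6.64 times and Fcer1g by 4.30 to 6.29 times, in all 4 libraries. Ms4a2 exceeded Fcer1g in 3 of 4 libraries, so the beta and gamma chain genes were not separated beyond their spread. Of the IgG receptors, the activating Fcgr3 had 232, 298, 233 and 311 CPM and the inhibitory Fcgr2b 130.1, 58.9, 46.6 and 79.8 CPM. Fcgr2b was highest in Pulsed 1, yet Fcgr3 exceeded it in TPM in every library, by 3.38 to 9.59 times. Fcgr1, the high-affinity IgG receptor, had 1.27 ± 0.297 CPM, and Fcgr4 a mean of 0.0493 ± 0.0367 CPM.

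Of 34 growth factor and cytokine receptor genes, 27 were expressed, and 4, Csf2rb2, Il1rl1, Csf2rb and Kit, were among the 20 highest of the table by CPM. Csf2rb2, the beta chain of the mouse IL-3 receptor, had 8485, 8506, 7811 and 9069 CPM, and Csf2rb, the common beta chain for IL-3, IL-5 and GM-CSF, had 4783, 4808, 3645 and 5190.4 CPM. These paralogs are near-identical over long stretches, so the split of counts between them is uncertain. The IL-3 specific alpha chain Il3ra was much lower at 64.3, 87.7, 103 and 90.9 CPM, and Csf2rb2 exceeded it in TPM by 50.3 to 87.9 times. The alpha chains for GM-CSF, Csf2ra, and for IL-5, Il5ra, had 20.4 ± 1.95 CPM and 3.41 ± 2.44 CPM. Il1rl1, which encodes the IL-33 receptor ST2, had 6175, 7464, 3268 and 6921 CPM. Pulsed 3 was the low library for Il1rl1, and the mean of 5957 ± 1869 CPM became 6872 CPM without it. The IL-4 receptor chain Il4ra had 1448, 1559, 2250.0 and 1398 CPM, highest in Pulsed 3, and the common gamma chain Il2rg had 303 ± 32.4 CPM. Il2ra, the alpha chain of the IL-2 receptor, stood at 109.8, 92.5, 49.2 and 34.9 CPM, with Pulsed 1 and 2 above Pulsed 3 and 4. Il18r1, the IL-18 receptor, had 66.8 ± 19.3 CPM and the TGF-beta receptor chain Tgfbr1 414 ± 40.3 CPM. The TNF receptor Tnfrsf1a had a mean of 0.0392 ± 0.0645 CPM, highest in Pulsed 1 and 0.00720 CPM without it. The erythropoietin receptor Epor was low throughout, at 4.98, 4.79, 1.62 and 5.16 CPM.

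Receptors coupled to G proteins and the ATP-gated channels tune mast cell release. Of 35 such genes, 20 were expressed, among them the ATP-gated channels P2rx4 at 745, 549, 328 and 631 CPM and P2rx7 at 620.0, 550.3, 198 and 670.4 CPM. Both were lowest in Pulsed 3. P2rx1, of the same family, had 98.1 ± 14.9 CPM. The prostaglandin E receptor Ptger3 had 304, 409, 254 and 295 CPM, and the adenosine receptor Adora3, which enhances degranulation in mice, 259, 317, 375 and 299.8 CPM. Adora2b, another adenosine receptor, had 31.1, 45.0, 156 and 28.6 CPM and was at least 2 times higher in Pulsed 3 than in each other library, as 2.46% of all expressed genes were. The mean of Adora2b without Pulsed 3 was 35.05 CPM. By TPM, Adora3 had the highest mean of the list and exceeded P2rx4, the next, in 2 of 4 libraries, so these neighbours were not separated beyond their spread. The UDP-sugar receptor P2ry14 had 245 ± 35.2 CPM and the complement receptor C3ar1 98.4 ± 14.8 CPM. Of the histamine receptors, Hrh4 had 50.5, 24.7, 4.20 and 36.9 CPM, lowest in Pulsed 3, whereas Hrh1 had no count. Mrgprb2, the receptor through which peptides and drugs activate connective tissue mast cells without IgE, had 19.5, 3.48, 2.27 and 2.07 CPM. It was far higher in Pulsed 1 than elsewhere and its mean without Pulsed 1 was 2.53 CPM. The leukotriene receptor Cysltr1 had a mean of 0.0872 ± 0.0301 CPM.

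Inhibitory receptors carry motifs that recruit phosphatases and restrain IgE signalling. Lilrb4b and Lilrb4a (gp49B) were the highest of 16, at 1666, 2038, 3545 and 1037 CPM and 1019, 1508, 2406 and 769 CPM. Both were highest in Pulsed 3 and lowest in Pulsed 4, and the paralogs share sequence. Pecam1 had 672, 595, 590.4 and 608 CPM with little spread. Cd300a, which binds lipids of dying cells, had 335, 281, 215 and 257 CPM, and the paired receptor Pirb 209, 189, 88.9 and 160.0 CPM. Cd300lf, of the family of Cd300a, had 155 ± 23.5 CPM. Cd200r1, the inhibitory relative of Cd200r3, had 124, 159, 32.1 and 119 CPM and was lowest in Pulsed 3.

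Toll-like receptors detect microbial products. Of 11 genes of this list 3 were expressed, Tlr4, the lipopolysaccharide receptor, at 76.6, 64.3, 23.9 and 59.9 CPM, Tlr6 at 8.54 ± 2.86 CPM and the Tlr4 partner Ly96 at 4.35 ± 1.57 CPM. The remaining 8, among them Tlr2, Tlr3 and Cd14, were under 1 CPM. Integrins hold mast cells in tissue. Of the 16 integrin genes, Itga2b had 1711, 1854, 1665 and 1700.2 CPM, at a CV of 4.80%, and Itgb7, the chain for homing to the gut, 629, 642, 456 and 498 CPM. By TPM they were the highest of the list, and Itga2b exceeded Itgb7 in 3 of 4 libraries, so these neighbours were not separated beyond their spread. The usual partner chains were far lower, with Itgb3 at 37.3, 43.3, 11.5 and 9.36 CPM and Itga4 at 3.45, 9.31, 5.78 and 19.6 CPM, or a mean of 6.23 CPM without Pulsed 4. Itgb1, the chain most integrins share, had 157, 204, 217 and 205 CPM. Itga5, Itgav and Itgb2 had 54.5 ± 21.0 CPM, 48.2 ± 4.39 CPM and 37.1 ± 10.2 CPM. In TPM, Itga2b exceeded Itgb3 by 34.6 to 147 times and Itgb7 exceeded Itga4 by 147 to 1051 times.

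The signalling chain under the IgE receptor runs from Src-family and Syk kinases through adaptors to phospholipase C and phosphoinositide 3-kinase. All 31 listed genes were expressed and 20 exceeded 100 CPM. Lyn, the first kinase of the chain, had 243, 284, 184 and 227 CPM. Syk, which docks on the phosphorylated receptor, had 119.9, 122, 108 and 152 CPM. The Tec-family kinase Btk had 308, 425, 152 and 439 CPM and was lowest in Pulsed 3. Fyn had 9.51, 15.7, 21.5 and 23.3 CPM, and Lyn exceeded it in TPM by 20.6 to 61.8 times. The adaptors Lat2, Lcp2 (SLP-76) and Lat had 785 ± 113 CPM, 739 ± 233 CPM and 233 ± 33.5 CPM. Pik3cd, the delta catalytic subunit of phosphoinositide 3-kinase, had 748, 872, 770.5 and 858 CPM, and Prkcb, protein kinase C beta, 699, 680.4, 705 and 705 CPM. Prkcd, the delta form, had 432, 402, 244 and 368 CPM. Prkcb had the smallest spread of the list, a CV of 1.65%. Phospholipase C genes Plcg1 and Plcg2 had 309 ± 83.5 CPM and 116 ± 15.5 CPM, and Plcg1 was higher in TPM in 4 of 4 libraries, by 1.00 to 1.49 times. Of the brakes, the lipid phosphatase Inpp5d (SHIP-1) had 818, 792, 525 and 814 CPM and the tyrosine phosphatase Ptpn6 (SHP-1) 421, 673, 144 and 600.0 CPM. Both were lowest in Pulsed 3, Ptpn6 by more. Lowest values fell in Pulsed 3 for 17 of the 31 (54.8%), near the 46.3% of all expressed genes.

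Among 36 lineage transcription factors, 29 were expressed. By TPM, Gata2 was followed by Id2 and then Bhlhe40, each exceeding the next in 3 of 4 libraries. Id2, an inhibitor of helix-loop-helix factors, had 681, 481, 1763 and 333 CPM and was highest in Pulsed 3, with a mean of 501 CPM without it. Bhlhe40, a stress-responsive repressor and activator, had 963, 759, 1038 and 677 CPM, and Runx1, needed in blood formation, 662, 693, 516 and 698 CPM. The blood stem cell factors Tal1 and Fli1 had 531, 571, 342 and 554 CPM and 479, 539.7, 346 and 533 CPM. Gata1, the erythroid and mast cell factor, had 259, 267, 122 and 263 CPM. Gata2 exceeded Gata1 in TPM by 2.12 to 6.95 times. Stat5a and Stat5b, which carry the IL-3 signal, had 243, 127, 76.7 and 153 CPM and 236, 164, 95.6 and 175 CPM, both lowest in Pulsed 3. Spi1 (PU.1) had 87.2, 89.9, 109.8 and 78.7 CPM. Runx3 was the reverse of most, at 244, 282, 483 and 253 CPM. Cebpa, the granulocyte and basophil factor, had a mean of 0.133 ± 0.124 CPM, or 0.0735 CPM without Pulsed 3. Of the 29, 19 (65.5%) had their lowest value in Pulsed 3 against 46.3% of all expressed genes, and 7 (24.1%) were at least 2 times lower there than in each other library against 9.39%. In the other direction, 9 of the 29 (31.0%) had their highest value in Pulsed 3 against 26.2%, and 3 (10.3%) were at least 2 times higher there against 2.46%. Those 3 were Id2, its relative Id1 at 0.269, 0.191, 4.27 and 0.146 CPM and the inducible factor Cebpb at 4.85, 14.7, 51.4 and 4.52 CPM, and without Pulsed 3 the means of Id1 and Cebpb were 0.203 CPM and 8.07 CPM. The 7 that were lower included Myb, a factor of dividing progenitors, at 186, 168, 37.8 and 226 CPM. Nfe2 and Gfi1b, known from the erythroid and megakaryocyte lineages, had 177, 164, 25.3 and 173 CPM and 36.1, 33.3, 4.03 and 44.4 CPM. Lyl1, a relative of Tal1, had 202, 143, 37.7 and 179.6 CPM, and the stem cell factor Erg 94.5, 77.7, 14.8 and 88.3 CPM. Pulsed 3 lay below the range of Pulsed 1, 2 and 4 for each of these 5 genes, which follows from the rule that picked them.

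The m6A machinery writes, reads and erases the methyl mark on adenosines of mRNA, and Mettl3 is its catalytic subunit. Mettl3 had 24.8, 25.5, 9.99 and 28.2 CPM in the 4 libraries, lowest in Pulsed 3, and its mean without Pulsed 3 was 26.2 CPM. The partner Mettl14 had 33.8, 40.0, 42.0 and 45.7 CPM and exceeded Mettl3 in TPM by 1.10 to 3.39 times. The adaptor Wtap had 92.3 ± 13.0 CPM, the RNA-binding subunit Rbm15b 111 ± 16.2 CPM and the zinc finger subunit Zc3h13 86.6 ± 14.3 CPM. The eraser Alkbh5 had 103 ± 15.2 CPM and the nuclear reader Ythdc1 84.1, 83.3, 150.0 and 85.8 CPM, and the cytoplasmic reader Ythdf3 had 86.9 ± 17.1 CPM. Of 15 expressed members 11 were highest in Pulsed 3, against 26.2% of all expressed genes, in the opposite direction to Mettl3.

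Transcripts for secreted mediators were present in these cells, for which no stimulus was labelled. Of 22 cytokine genes, 10 were expressed. Leukemia inhibitory factor, Lif, had 647, 1027, 1137 and 310.0 CPM and oncostatin M, Osm, 385, 671, 794 and 109 CPM. Both belong to the IL-6 family, and both were lowest in Pulsed 4. Transforming growth factor beta, Tgfb1, stood at 444, 595, 711 and 567 CPM and Il6 at 124, 132, 258 and 67.1 CPM. Il13 and Il4, cytokines of allergic inflammation, were lower, with Il13 at 12.4, 5.09, 19.0 and 2.01 CPM and Il4 at 20.1, 16.3, 12.8 and 11.4 CPM. Tnf had 14.6, 8.60, 86.9 and 5.28 CPM, with Pulsed 3 far above the other 3, and its mean without Pulsed 3 was 9.55 CPM. The growth factors Csf1 and Vegfa had 115, 135, 171 and 49.5 CPM and 56.2, 80.2, 143 and 66.8 CPM. Il3, Il5, Csf2 and 9 further cytokine genes were under 1 CPM, 3 of them with no count. Among chemokines Ccl2 led with 379.9, 359, 417 and 169.8 CPM, ahead of Ccl7 with 46.8, 82.3, 194 and 15.8 CPM. Ccl3 and Ccl4, which draw in lymphocytes and monocytes, had 14.3, 3.46, 53.0 and 0.525 CPM and 19.6, 3.81, 34.5 and 0.233 CPM. The means of Ccl7, Ccl3 and Ccl4 without Pulsed 3 were 48.7 CPM, 6.14 CPM and 7.97 CPM. Ccl6 had 29.5, 3.32, 19.9 and 1.87 CPM, with a mean of 8.13 CPM without Pulsed 1, and Ccl9 had 5.36, 1.71, 5.43 and 0.729 CPM. Of the 10 expressed cytokines 8 were highest in Pulsed 3 and 8 lowest in Pulsed 4, and of the 6 expressed chemokines 5 were highest in Pulsed 3 and 6 lowest in Pulsed 4, against 26.2% and 14.1% of all expressed genes. Without Pulsed 3 the members lowest in Pulsed 4 were again 8 and 6, against 26.4% of all expressed genes. With total counts as library sizes, 3 of the 6 chemokines were highest in Pulsed 3 and the other counts were unchanged, against 25.8% highest in Pulsed 3 and 16.8% lowest in Pulsed 4 over all expressed genes.

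Mast cells make leukotrienes and prostaglandins from arachidonic acid. Alox5, 5-lipoxygenase, had 2109, 2862, 2505 and 3086 CPM and its activating protein Alox5ap 312, 355, 272 and 339.8 CPM. The enzymes that follow, Lta4h and Ltc4s, had 167 ± 41.8 CPM and 30.6 ± 3.15 CPM. On the cyclooxygenase branch, the constitutive Ptgs1 had 89.7, 126, 121 and 99.5 CPM and the inducible Ptgs2 0.135, 1.85, 3.87 and 0.0292 CPM. In TPM, Alox5 exceeded Ptgs1 by 19.6 to 29.3 times. The prostaglandin D synthase of mast cells, Hpgds, had 108, 98.1, 51.1 and 127 CPM and thromboxane synthase, Tbxas1, 391, 509, 341 and 458 CPM. Ptgs2 was highest in Pulsed 3 and lowest in Pulsed 4, as Tnf was, and its mean without Pulsed 3 was 0.678 CPM. The prostaglandin E synthase Ptges3, also a cochaperone, had 78.5, 116, 121 and 144 CPM.

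Immediate early genes are switched on within minutes of a stimulus and encode transcription factors and feedback regulators. Of 25 listed, 22 were expressed, and their summed level was 5001, 5887, 23040 and 1340 CPM in Pulsed 1 to 4. Egr1 had 919.9, 1341, 7743 and 28.0 CPM and Junb 815, 1106, 3345 and 65.2 CPM. Egr3, of the same zinc finger family as Egr1, had 46.3, 152, 2636 and 4.34 CPM and the orphan nuclear receptor Nr4a1 6.47, 148, 989 and 2.71 CPM. Each of these followed 1 order, with Pulsed 3 highest, Pulsed 4 lowest, and Pulsed 1 and 2 between them. Fos had 123, 188, 459 and 0.700 CPM and its relative Fosb 21.2, 189, 927 and 1.60 CPM. Egr2 had 10.6, 13.8, 455 and 0.0875 CPM. In Pulsed 4 the count of Egr2 was at the limit of 3 counts. Myc and Jun had 85.9, 121, 519 and 137 CPM and 183, 118, 264 and 35.6 CPM, and Atf3 had no count in Pulsed 4 and 11.9 CPM in Pulsed 3. Ier2, Ier3 and Klf6, further genes of this early response, had 448, 347, 1356 and 43.4 CPM, 984, 726, 1377 and 457 CPM and 529.8, 491, 757 and 301 CPM. The phosphatase genes Dusp1 and Dusp5 had 97.4, 141, 133 and 2.71 CPM and 19.7, 38.3, 263 and 10.4 CPM. Of the 22, 20 were highest in Pulsed 3 (26.2% of all expressed genes) and 21 lowest in Pulsed 4 (14.1%). At least 2 times higher in Pulsed 3 than in each other library were 16 (2.46% of all), and 13 were at least 2 times lower in Pulsed 4 (0.737% of all). Without Pulsed 3, 21 were again lowest in Pulsed 4 against 26.4% of all expressed genes, and 13 at least 2 times lower there against 1.16%. The means without Pulsed 3 were 771 CPM for Egr1, 668 CPM for Junb, 68.2 CPM for Egr3 and 53.0 CPM for Nr4a1. For Fos, Fosb and Egr2 they were 105 CPM, 71.5 CPM and 8.26 CPM, and for Myc, Ier2, Dusp5 and Atf3 115 CPM, 282 CPM, 23.0 CPM and 0.191 CPM. The list was written with this pattern known. The labels name no batch for these libraries. The study's methods mention a batch correction, which the counts used here do not show. The part of a batch in this pattern was not tested.

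**Figure D4:**
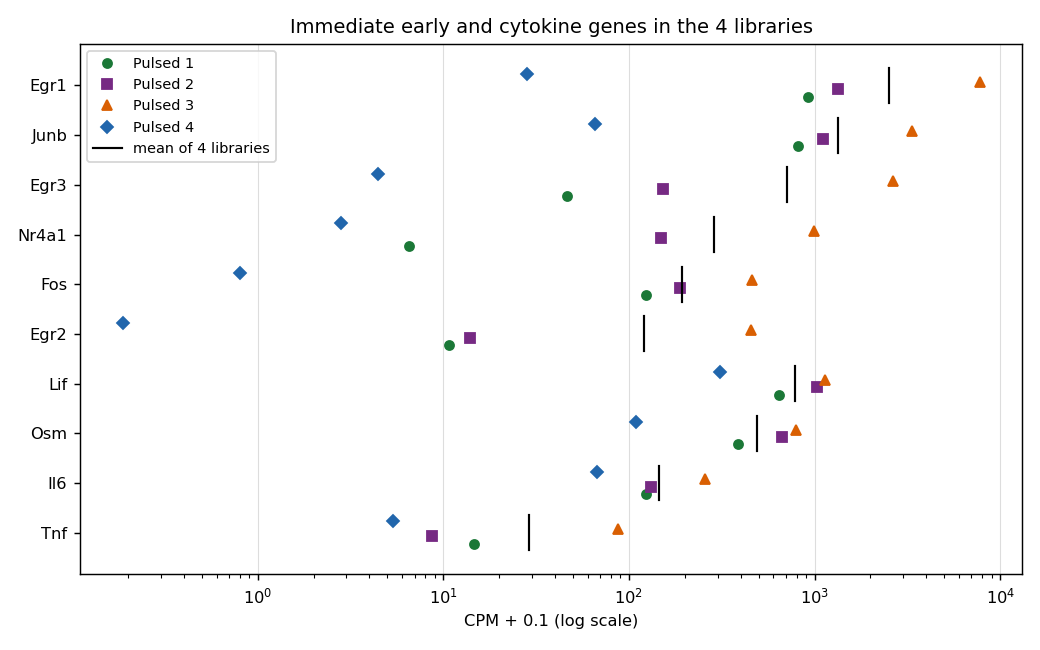
CPM plus 0.1 on a log axis for 6 immediate early genes and 4 cytokine genes, with symbols for each library and a black bar for the mean of 4 libraries. Pulsed 3 is the highest and Pulsed 4 the lowest library for every gene shown, from Egr1 at 7743 and 28.0 CPM to Tnf at 86.9 and 5.28 CPM. The genes shown were picked from their lists. This order was followed by 19 of the 22 expressed immediate early genes and 6 of the 10 expressed cytokine genes.

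Genes of cell division differed in another order. Mki67, the proliferation marker, had 178, 467, 336 and 697 CPM and Top2a, which untangles DNA, 94.4, 234, 168 and 342 CPM. The replication helicase genes Mcm2 and Mcm5 had 50.4, 67.8, 71.6 and 130.3 CPM and 37.5, 62.2, 51.5 and 122 CPM. Pulsed 1 was lowest and Pulsed 4 highest for these 4 genes. The mitotic kinase gene Cdk1 had 15.5, 45.4, 36.6 and 61.0 CPM and its cyclin Ccnb1 9.56, 24.0, 15.9 and 37.3 CPM, again lowest in Pulsed 1. Plk1, another mitotic kinase gene, was lowest in Pulsed 3, at 15.4, 36.0, 11.6 and 64.6 CPM, and its mean without Pulsed 4 was 21.2 CPM. Cdk6, the kinase of the G1 phase, had 275, 322, 346 and 477 CPM. Of 24 expressed members 20 were lowest in Pulsed 1 (32.3% of all expressed genes) and 19 highest in Pulsed 4 (33.8%), and with total counts as library sizes 16 and 19 were (21.9% and 27.7%). Without Pulsed 3 these were 21 and 20, against 47.1% and 35.7%. The D-type cyclins did not share this spread, at 474, 564, 544 and 469 CPM for Ccnd2 and 184, 212, 199 and 197 CPM for Ccnd3. Cdkn1a, the p21 inhibitor of cycling and a p53 target, had 261, 439, 1295 and 195 CPM and was highest in Pulsed 3, with a mean of 300.2 CPM without it. Xist, the RNA of the inactive X chromosome, had 1154, 1416, 1141 and 1584 CPM, while the Y-linked genes Ddx3y, Eif2s3y and Kdm5d had no count in any library.

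Of reference genes used to scale assays, 8 of 9 had a row. B2m had 604, 723, 644 and 667 CPM at a CV of 7.51%, against 29.8% for Actb and 19.6% for Gapdh, so these differed in how steady they were between the libraries. Tpt1 and the ribosomal stalk gene Rplp0 had 2223 ± 312 CPM and 1559 ± 294 CPM. The protein-coding genes with the smallest CV among those of at least 20 CPM were Tnrc6a, a scaffold of microRNA silencing, at 101, 102, 102 and 102 CPM, the ubiquitin ligase Mkrn1 at 73.2, 74.4, 74.4 and 73.8 CPM, and Clasrp, Cables2, Med25 and Rnf166. Their CVs were between 0.550% and 1.17%.

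Over all expressed genes the median CV was 24.6%, with quartiles of 15.5% and 38.7%. The common biological coefficient of variation from edgeR, which takes counting noise out, was 0.372. A CV of at least 50% was found for 13.1% of the genes, and 153 genes had a CV of at least 100%. Without Pulsed 3 the median CV was 15.7% and the common biological coefficient of variation 0.260, while without Pulsed 1, 2 or 4 the median CV was between 22.5% and 28.0%. A gene was counted as apart in 1 library where its CPM plus 0.5 was at least 2 times higher, or at least 2 times lower, than in each of the other 3. This held for 1774 genes (14.9%), of which 79.7% were apart in Pulsed 3, 293 of them higher and 1121 lower. Pulsed 1 had 260 genes apart, 89 higher and 171 lower, which became 142 and 106 with total counts as library sizes. Pulsed 4 had 134 genes apart and Pulsed 2 had 13. Without Pulsed 3 the number apart was 679. The first principal component of log2 CPM held 67.8% of the variance and set Pulsed 3 against the rest, and the second held 24.7% and ran from Pulsed 1 to Pulsed 4.

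**Figure D5:**
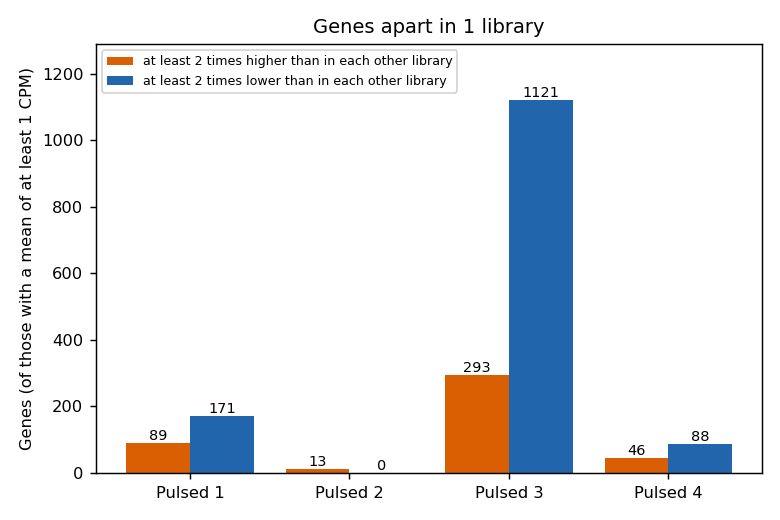
Number of expressed genes at least 2 times higher (orange) or lower (blue) in 1 library than in each other library, on a linear axis from 0. Pulsed 3 has 293 higher and 1121 lower genes, while no other library has more than 171 in either direction.

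The 12 most variable protein-coding genes of at least 20 CPM were all highest in Pulsed 3, which is in the values that ranked them. They were Egr2, Egr3, Nr4a1, Fosb, Egr1, Dusp5, Errfi1, Irs2, Fam43a, Skil, Noct and Nlrp3. Errfi1, a feedback inhibitor of the EGF receptor, had 36.8, 123, 1586 and 16.8 CPM, and the insulin receptor substrate Irs2 59.5, 90.0, 732 and 53.1 CPM. Nlrp3, the inflammasome sensor, had 69.3, 127, 848 and 66.9 CPM. The means of Errfi1, Irs2 and Nlrp3 without Pulsed 3 were 59.4 CPM, 67.8 CPM and 88.2 CPM. Furthest above the other libraries in Pulsed 3, among protein-coding genes of at least 5 CPM, were Egr2, 6430571L13Rik, Crtam, Egr3 and Nr4a3. Crtam, an adhesion receptor known from lymphocytes, had 0.512, 0.762, 23.3 and 0.437 CPM, and Nr4a3 0.566, 1.14, 22.9 and 0.262 CPM. Their means without Pulsed 3 were 0.573 CPM and 0.662 CPM. Furthest below were Pla2g15, Mlph, Zfp60, Depdc7 and Il16. Pla2g15, the lysosomal phospholipase, had 78.4, 54.0, 3.18 and 64.2 CPM. Mlph, which links melanosomes to the motor on actin, had 48.1, 44.9, 3.14 and 53.3 CPM. The cytokine gene Il16 had 84.6, 71.3, 6.16 and 105 CPM. For these last 3 genes Pulsed 1, 2 and 4 lay closer to each other than to Pulsed 3, which is in part set by the ranking that picked them.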

How the data were processed

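The deposited files hold whole-number counts per Ensembl gene, 1 table per library, with no normalization. Per the study's methods and the submitters' processing notes, the authors mapped paired reads of 50 bases with HISAT2 2.2.1 to GRCm39 (Ensembl release 107) and counted them with featureCounts 2.0.1, after FastQC 0.11.9. Strand and multimapping settings are not given in the sources used here. An exon of a gene on the opposite strand overlaps 62.0% of expressed genes. Whether reads of such pairs were told apart in counting is not known. The methods mention a batch correction after counting, which whole-number counts do not show. GENCODE mouse release 39 named 56017 of the 56748 gene IDs (98.7%), and unnamed IDs took up no more than 0.104% of any library.

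Only the 4 Pulsed libraries were used. TMM factors (edgeR 4.0.16, R 4.3.3) came from these 4 alone and were 0.946 to 1.09. A gene counted as expressed at a mean CPM of 1 or more. TPM used the summed length of all exons of a gene. The spread was taken from CVs and from edgeR's biological coefficient of variation, and DESeq2 1.42.0 gave size factors and dispersions as alternatives. No test between groups was made. The smallest chi-square statistic between any 2 libraries, divided by its degrees of freedom, was 53.7, more than counting noise gives between 2 runs of 1 library, and each counted as a replicate by its label. The scripts were tested on simulated data. Pictures were drawn in Python 3.11.15.

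The group and the gene lists were chosen with earlier results of these data known. The genes named are the 6 markers, the 20 highest by CPM, up to 6 expressed members of each list with the highest mean CPM, members under 1 CPM by name or count, the 12 most and 6 least variable protein-coding genes of at least 20 CPM, the 5 furthest apart in each direction in Pulsed 3 (at least 5 CPM), and single list members on which another value turned. Of the last, Adora2b, Nfe2, Gfi1b, Erg, Lyl1, Runx3, Rab27a, Hrh4, Cd200r1, Ctsl, Atf3, Epor, Id1, Cebpb and the olfactory receptor genes were chosen after their values were seen. A few genes were left out of the lists and are not reported here, and other members enter by counts and ranges.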

Additional observations from a re-analysis of the deposited data

Results flagged for a closer look

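Of 249 sets of 4 values (240 named genes and 9 measures of the libraries), 37 had 1 library far from the other 3, meaning that the share of the whole range taken by its gap to the nearest was above Dixon's critical value for 4 values. Chance flags about 1 in 20 such sets, which would be 12.4, and 8.87% of all expressed genes passed the same limit. Many of the genes were named for their spread, so the share among them (14.9%) is a description. Of the 37, 32 were set by Pulsed 3, 5 by Pulsed 1 and none by Pulsed 2 or 4.

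The genes with Pulsed 3 far above the others were led by early response genes. In that library Egr1 stood at 7743 CPM, Egr3 at 2636 CPM, Nr4a1 at 989 CPM, Myc at 519 CPM and Egr2 at 455 CPM. Lower in level but set apart likewise were Dusp5 at 263 CPM, Tnf at 86.9 CPM, Nr4a3 at 22.9 CPM and Atf3 at 11.9 CPM. Beside them stood Errfi1 at 1586 CPM, Nlrp3 at 848 CPM, Irs2 at 732 CPM, Runx3 at 483 CPM, Skil at 109 CPM, Noct at 104 CPM and Fam43a at 63.2 CPM. The m6A genes Ythdc1, Alkbh5 and Zc3h13 had 150.0, 126 and 108 CPM in Pulsed 3. Adora2b had 156 CPM there, 6430571L13Rik 49.6 CPM, Crtam 23.3 CPM and Id1 4.27 CPM, while Hnmt had 0.133 CPM, which is a handful of counts. Without Pulsed 3 the means of Skil, Noct, Fam43a and 6430571L13Rik were 10.8, 10.5, 6.18 and 1.14 CPM.

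Genes with Pulsed 3 far below the others included the lineage factors Gata1 at 122 CPM, Mitf at 66.8 CPM and Nfe2 at 25.3 CPM. The phosphatase gene Inpp5d had 525 CPM there and the exocytosis gene Stxbp2 154 CPM. Mlph had 3.14 CPM, Epor 1.62 CPM and Zfp60 0.667 CPM.

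In Pulsed 1, Srgn was far below the others at 2531 CPM. Mrgprb2 was far above them at 19.5 CPM and Ctsl at 9.48 CPM. Csf1r at 0.485 CPM and Tnfrsf1a at 0.135 CPM were also highest there, on few counts.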

How the results depend on the processing

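No paired analysis was possible because the libraries form 1 group and no groups were compared. Scaling by total counts or DESeq2 size factors kept the number of expressed genes at 11941, the median CV at 24.7% and 24.3% and the genes apart in 1 library at 1730 and 1699, and moved none of the 240 named genes by more than 1 SD. On a fixed scale, leaving out 1 of 4 values cannot shift their mean by 1 SD, so that limit says nothing of how stable the means were without a library. It was passed by 16 means of 7 genes (Prkcb, Tnrc6a, Mkrn1, Clasrp, Cables2, Med25 and Rnf166) through the scaling recomputed without that library. The mean was lower by over 1.5 times for 34 named genes without Pulsed 3, 7 without Pulsed 1, 4 without Pulsed 4 and none without Pulsed 2, and dropping 1 of 4 values cannot raise a mean by as much. The counts of list members highest or lowest in Pulsed 1 or 4 without Pulsed 3 were chosen after seeing the data. Without a filter the 30816 genes with a count replaced the 11933 expressed ones, and the median CV was 61.0%. Genes apart numbered 4405 at a fold of 1.5, 522 at a fold of 3 and 1003 with a mean of at least 10 CPM. Leaving out mitochondrially encoded genes lowered the share of the 20 highest genes to 12.8%. Without each library in turn the median CV ran from 15.7% (without Pulsed 3) to 28.0% (without Pulsed 2), and the genes apart from 679 (without Pulsed 3) to 2654 (without Pulsed 2). With 3 libraries a gene needs to stand apart from fewer others. The median genewise biological coefficient of variation was 0.318 by edgeR and 0.244 by DESeq2. The 20 highest genes by TPM were shared in full when the longest transcript set the length or a library was left out. Levels near the limit of 3 counts cannot be read as absence.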

Other observations

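Olfactory receptor genes, which are known for their use in the nose, were counted in the tables as a family of 1379 genes, and 4 of them reached a mean of 1 CPM. Or8b53 had 13.8, 37.0, 76.8 and 11.9 CPM in Pulsed 1 to 4, Or5m3b had 37.9, 26.4, 12.3 and 23.1 CPM, and Or10j5 had 29.0, 2.56, 6.23 and 0.437 CPM. The mean of Or8b53 was 21 CPM without Pulsed 3, and that of Or10j5 2.98 CPM without Pulsed 1. The summed level of the family was 46.8 to 148 CPM, lowest in Pulsed 4 and highest in Pulsed 3. Overlap with exons on the opposite strand was counted over all expressed genes, and its part in the counts of these genes was not tested.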
